A study of Homo sapiens with 24 samples.

Results

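The cytokines of the interleukin 1 and interleukin 6 families and their receptors were followed in PPC1 prostate cancer cells and in the polyploid giant cancer cells (PGCC) that survive radiation. The 10 genes were chosen by symbol, with results of the comparison of PGCC with parental cells in view, and all 10 were found in the count table, each in 1 row of 48162 genes. They are the ligands IL1A, IL1B and IL18, the antagonist IL1RN and the receptor chains IL1R1 and IL1RAP of the interleukin 1 family, and the ligands IL6, IL11 and LIF with the shared receptor chain IL6ST of the interleukin 6 family. RNA was sequenced from 4 conditions with 6 libraries each. Parental PPC1 cells were untreated or exposed to LCL521, a pro-drug that inhibits the acid ceramidase ASAH1, at 5 μM for 5 hours before harvest. PGCC had received 8 Gy on day 2 and were enriched on a 20 micron strainer after trypsinization, again without or with 5 μM LCL521 for 5 hours, while filtering is described for irradiated plates alone. All cells were plated on day 1, and the labels put the harvest on day 5. PPC1 is a single cell line, and the PGCC are the large cells that were left after irradiation and size selection, so that radiation, survival and size selection cannot be told apart. In bulk RNA, a change in the share of cells that express a gene and a change in RNA per cell cannot be told apart either.

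Interleukin 1α and interleukin 1β bind the same receptor, IL1R1, which recruits IL1RAP and signals through MYD88 and IRAK kinases to NF-kappaB, while the antagonist encoded by IL1RN occupies IL1R1 without recruiting IL1RAP. Interleukin 1β and interleukin 18 are made as inactive precursors and are released after cleavage by caspase 1. Interleukin 6, interleukin 11 and LIF each bind a receptor of their own and share gp130, the product of IL6ST, which signals through JAK kinases and STAT3. Many of these cytokines belong to the secretory program of senescent and stressed cells.

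The libraries held 14835246 to 19906601 reads assigned to genes. A level of 3 counts, taken here as the floor, lay between 0.15 and 0.207 CPM (counts scaled to a library of 1000000 by the library's total times its TMM factor), and this floor covers counting error only. The epithelial markers were all counted in each condition, with a summed level of 784 to 1480 CPM over the 24 libraries. Most of this was KRT19, KRT18 and KRT8, at 612, 233 and 70.2 CPM in parental cells without LCL521, where CDH1 was at 3.07 CPM and EPCAM at 0.203 CPM, near the floor. Without LCL521, KRT8, KRT19 and EPCAM had higher means in PGCC than in parental cells, and KRT18, KRT7 and CDH1 had lower ones. Of the 6 prostate lineage markers, KLK3, KLK2 and FOLH1 were listed at 0 in every library, and the 6 together reached at most 0.184 CPM. The 10 leukocyte markers summed to between 0.580 and 2.97 CPM in the parental libraries and to between 3.58 and 5.40 CPM in the PGCC libraries, with and without LCL521. Most of this was PTPRC, at 1.17 CPM in parental cells and 3.09 CPM in PGCC, both without LCL521. CD14, ITGAM, LYZ and CSF1R were higher in PGCC as well. Their summed counts without LCL521 were 19, 0, 0 and 13 in parental cells and 42, 31, 24 and 60 in PGCC. CD68, CD163, AIF1 and CD3E had 0 counts in PGCC without LCL521, and AIF1 had 1 in parental cells. Of the 10 markers, 5 were under the floor in PGCC without LCL521 and in PGCC with it. The 6 fibroblast markers summed to between 52.4 and 133 CPM in parental libraries and to between 81.8 and 209 CPM in PGCC libraries. Most of this was COL1A2, at 63.9 CPM in parental cells and 112 CPM in PGCC without LCL521. COL1A1 was at 8.36 and 7.05 CPM there, and 3 of the 6 markers were under the floor in parental cells and 2 in PGCC. The 3 endothelial markers found reached at most 4.83 CPM in parental libraries and 6.32 CPM in PGCC libraries. The part of these markers in the results below was not tested. Libraries of replicates 4 and 5 stood apart from the others for several members in each condition, and their values are therefore given separately where they differ.

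Sequences upstream of the ligand genes with the largest rises are shown here, because IL1A, IL1B, IL6 and IL11 were all higher in PGCC. Each line holds 300 bases in the direction of transcription, 250 before and 50 after a RefSeq transcription start of GRCh38.p14, with letters in capitals where an AP-1 motif (TGANTCA, searched on either strand) or the NF-kappaB consensus was found.
IL1A promoter (chr2:112784444-112784743, minus strand): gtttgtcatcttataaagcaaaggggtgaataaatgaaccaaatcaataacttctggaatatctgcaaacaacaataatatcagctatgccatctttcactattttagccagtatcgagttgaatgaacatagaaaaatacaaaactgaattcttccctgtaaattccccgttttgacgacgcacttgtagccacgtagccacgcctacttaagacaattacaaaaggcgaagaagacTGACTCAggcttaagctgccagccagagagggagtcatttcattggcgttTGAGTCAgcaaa
IL1B promoter (chr2:112836730-112837029, minus strand): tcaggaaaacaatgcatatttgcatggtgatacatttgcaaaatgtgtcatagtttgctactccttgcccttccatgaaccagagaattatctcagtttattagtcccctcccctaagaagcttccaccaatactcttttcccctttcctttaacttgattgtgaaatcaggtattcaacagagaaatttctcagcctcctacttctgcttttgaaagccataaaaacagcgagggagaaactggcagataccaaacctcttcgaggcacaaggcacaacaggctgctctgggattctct
IL6 promoter (chr7:22726950-22727249, plus strand): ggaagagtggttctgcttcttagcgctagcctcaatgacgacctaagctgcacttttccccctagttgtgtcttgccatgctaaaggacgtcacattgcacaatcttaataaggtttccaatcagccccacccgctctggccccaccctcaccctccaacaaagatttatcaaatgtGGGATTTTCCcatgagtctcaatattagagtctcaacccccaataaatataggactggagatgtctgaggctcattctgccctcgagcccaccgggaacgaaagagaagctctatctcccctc
IL11 promoter (chr19:55370414-55370713, minus strand): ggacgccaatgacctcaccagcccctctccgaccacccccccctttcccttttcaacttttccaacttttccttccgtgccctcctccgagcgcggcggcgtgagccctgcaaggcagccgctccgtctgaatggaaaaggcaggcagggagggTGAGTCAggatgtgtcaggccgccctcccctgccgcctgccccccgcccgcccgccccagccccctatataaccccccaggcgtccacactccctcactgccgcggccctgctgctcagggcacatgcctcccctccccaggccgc
The AP-1 motif was found in 7.71% of the 35116 RefSeq promoters of this length and the NF-kappaB consensus in 11.3% of them. The motifs did not overlap each other in the sequences shown, and because TGACTCA and TGAGTCA read as the motif on either strand, each was counted once. At the start shown, 1 of 2 listed for IL1A, the AP-1 motif stood at bases -12 to -6 and at bases 39 to 45, counted from the start. The IL11 promoter held it at bases -96 to -90, and the IL6 promoter held the NF-kappaB letters GGGATTTTCC at bases -73 to -64. No match was found in the 300 bases of IL1B. Promoters were found for 8 of the 10 members, and of those not shown IL1RN held an AP-1 motif and IL6ST the NF-kappaB consensus. LIF and IL18 had no entry.

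The members differed widely in level. Compared per kilobase of listed gene length, IL18 had the highest level in parental cells, at 27.2 ± 6.62 CPM per kilobase (SD, n = 6), followed by IL6ST at 9.37 ± 1.93. IL1RAP, IL1B, LIF and IL11 followed at 5.26, 3.55, 1.90 and 0.846 CPM per kilobase, and the ranges of neighbours in this order overlapped. The other 4 members, IL1A, IL6, IL1RN and IL1R1, had at most 0.0414 CPM per kilobase in parental cells, and their ranges overlapped as well. In PGCC the order was led by IL1B, at 79.2 ± 26.8 CPM per kilobase (SD, n = 6), and IL18 came next at 36.3 ± 8.71, with overlapping ranges. IL6ST, LIF, IL1RAP and IL11 lay between 13.4 and 3.15 CPM per kilobase, and IL1A and IL6 were at 0.807 and 0.646. The order of the 10 members was the same with LCL521 as without it in PGCC and in parental cells.

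**Figure D1:**
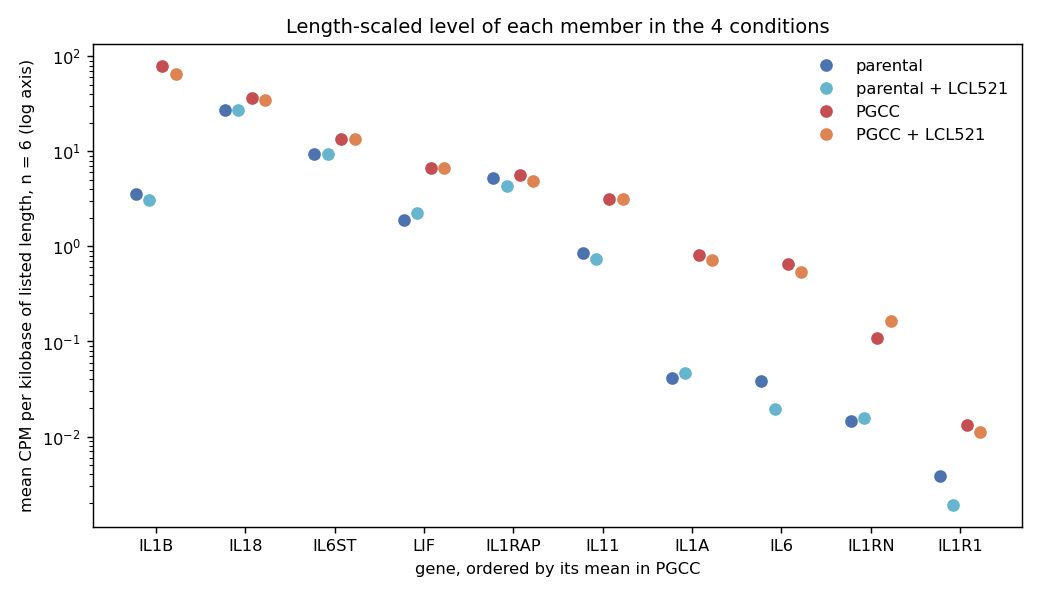
Mean level of each member in the 4 conditions (n = 6 libraries each), in CPM per kilobase of listed gene length on a log axis, with genes ordered by their level in PGCC. IL1B moves from 3.55 in parental cells to 79.2 in PGCC, while the points of IL18, IL1RAP and IL6ST lie close together in the 4 conditions.

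IL1B, which encodes interleukin 1β, was far higher in PGCC than in parental cells. The gene (ENSG00000125538, hg19 chromosome 2 from 113587328 to 113594480, minus strand) had a lowest, median and highest level of 3.55, 5.10 and 9.40 CPM in parental cells and of 69.4, 126 and 205 CPM in PGCC. The means were 5.78 ± 2.42 and 129 ± 43.7 CPM (SD, n = 6), and every PGCC library was above every parental library. Since the members were chosen with this contrast in view, its values are given as a description without a test. The log2 fold change was 4.48 (standard error, SE, 0.30), a 22.4-fold difference. With LCL521 present, IL1B had 3.06, 4.56 and 7.84 CPM in parental cells and 64.4, 106 and 150 CPM in PGCC, again without overlap. This contrast was tested in the 12 other libraries, which come from the same 6 experiments and the same populations. For LCL521 itself, 0% of the genes tested in parental cells and 0.00707% in PGCC passed the threshold. The p-values of this contrast, here and for the members below, are therefore not independent of the choice of members. IL1B rose with a log2 fold change of 4.42 (SE 0.25, adjusted p = 1.2e-08, quasi-likelihood test of edgeR, Benjamini-Hochberg method), or 21.4-fold with a 95% interval of 14.7 to 31.2. All 6 same-numbered pairs had the rise.

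IL1A, the gene of interleukin 1α, lies on the same chromosome (ENSG00000115008, hg19 chromosome 2 from 113531492 to 113542167, minus strand) and was close to undetected in parental cells. It had between 0 and 4 counts in each parental library, 9 counts over 6 libraries, and between 20 and 45 counts in each PGCC library, 184 in all. Its lowest, median and highest level in PGCC were 1.11, 1.72 and 2.5 CPM, all above the parental maximum of 0.233 CPM. The log2 fold change was 4.17 (SE 0.52), given as a description. With LCL521 the 12 libraries held 10 and 160 counts, with 0 to 4 counts in parental libraries and 18 to 44 in PGCC libraries. The ratio of the summed counts was 16.1, with an exact interval of 8.54 to 34.3 that covers counting error only. In edgeR's test the log2 fold change with LCL521 was 3.87 (SE 0.52, adjusted p = 3.0e-05 by the same method), but IL1A passed the filter on low counts only through the PGCC libraries, so that it could be tested only because it was high there.

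IL18, whose product is a further ligand of the family, had a small difference between the populations. This gene (ENSG00000150782, hg19 chromosome 11 from 112013974 to 112034840, minus strand) had 30.2, 47.9 and 59.8 CPM in parental cells and 42.4, 61.9 and 79.6 CPM in PGCC as lowest, median and highest level, so that the groups overlapped. The log2 fold change was 0.43 (SE 0.19). With LCL521 it was 0.39 (SE 0.19) and did not pass the threshold in edgeR's test (adjusted p = 0.0996), whereas with the replicate number as a block it was 0.38 (SE 0.07, adjusted p = 9.1e-04). In each of the 6 same-numbered pairs IL18 was higher in PGCC, with paired differences of log2 CPM between 0.33 and 0.49 without LCL521 and between 0.22 and 0.48 with it. Replicate 4 had the lowest IL18 level in each of the 4 conditions. Without it the unblocked edgeR fit passed the threshold (adjusted p = 0.0377). No test is read from a fit that leaves out a replicate with low values in the same data. Replicates 4 and 5 had 0.613 to 0.655 times the IL18 level of the others, without overlap in any of the 4 conditions.

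**Figure D2:**
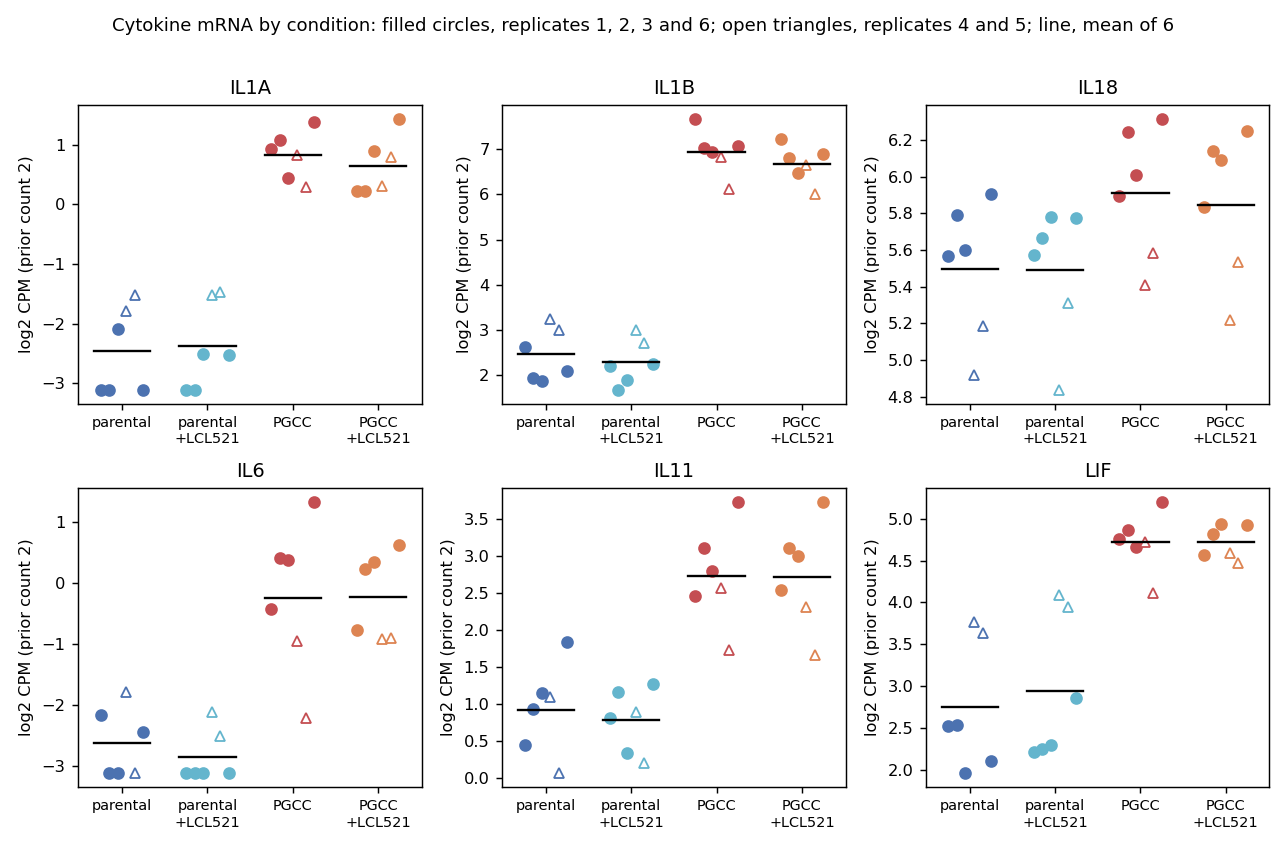
Log2 CPM (prior count 2) of the 6 ligands in every library of the 4 conditions. Filled circles are replicates 1, 2, 3 and 6, open triangles are replicates 4 and 5, and lines are means of 6. PGCC libraries lie above all parental libraries for IL1A, IL1B and LIF, overlap with them for IL18, and the open triangles are the highest parental points for IL1A, IL1B and LIF.

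The antagonist and the receptor chains of interleukin 1 were at low or little changed levels. IL1RN (ENSG00000136689, hg19 chromosome 2 from 113864791 to 113891593, plus strand) had 3 counts over the 6 parental libraries and 22 over the 6 PGCC libraries, with 0 to 2 and 1 to 5 counts per library. With LCL521 it had 3 and 33 counts, with 0 to 2 and 4 to 8 per library, and these 2 groups did not overlap. The ratio of summed counts with LCL521 was 11.1, with an exact interval of 3.48 to 56.5 for counting error only, and a two-sided exact permutation test of log2 CPM over all 924 divisions of the 12 libraries gave p = 0.00216, the smallest it allows. IL1RN did not pass the filter on low counts and so has no value in the fit across genes. Even in PGCC with LCL521 its mean was 0.316 ± 0.121 CPM (SD, n = 6), against 106 CPM for IL1B there.

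IL1R1, the receptor that binds the ligands (ENSG00000115594, hg19 chromosome 2 from 102681004 to 102796334, plus strand), was at or under the floor in every library. It had 2 and 7 counts over the 6 libraries of parental cells and PGCC, and 1 and 6 with LCL521, and no library held more than 3. No fold is given at these counts. The exact permutation test of PGCC against parental cells with LCL521 gave p = 0.0281, uncorrected, from groups that overlapped and held 0 to 1 and 0 to 2 counts per library.

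IL1RAP, the accessory chain (ENSG00000196083, hg19 chromosome 3 from 190231840 to 190375843, plus strand), was expressed at levels that overlapped in all conditions. Its lowest, median and highest level were 8.15, 26.7 and 41.3 CPM in parental cells and 12.7, 31.5 and 39.0 CPM in PGCC. With LCL521 they were 4.90, 23.5 and 32.2 CPM and 11.6, 26.9 and 32.0 CPM. The log2 fold change was 0.12 (SE 0.41) without LCL521 and 0.23 (SE 0.42, edgeR adjusted p = 0.680, 95% interval -0.67 to 1.12) with it. With the replicate block the latter was 0.40 (adjusted p = 0.0959). The levels of IL1RAP separated by replicate number instead. Replicates 4 and 5 had 0.248 times the mean of the other replicates in parental cells and 0.401 times in PGCC. With LCL521 the ratios were 0.214 and 0.420, without overlap in any condition.

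**Figure D3:**
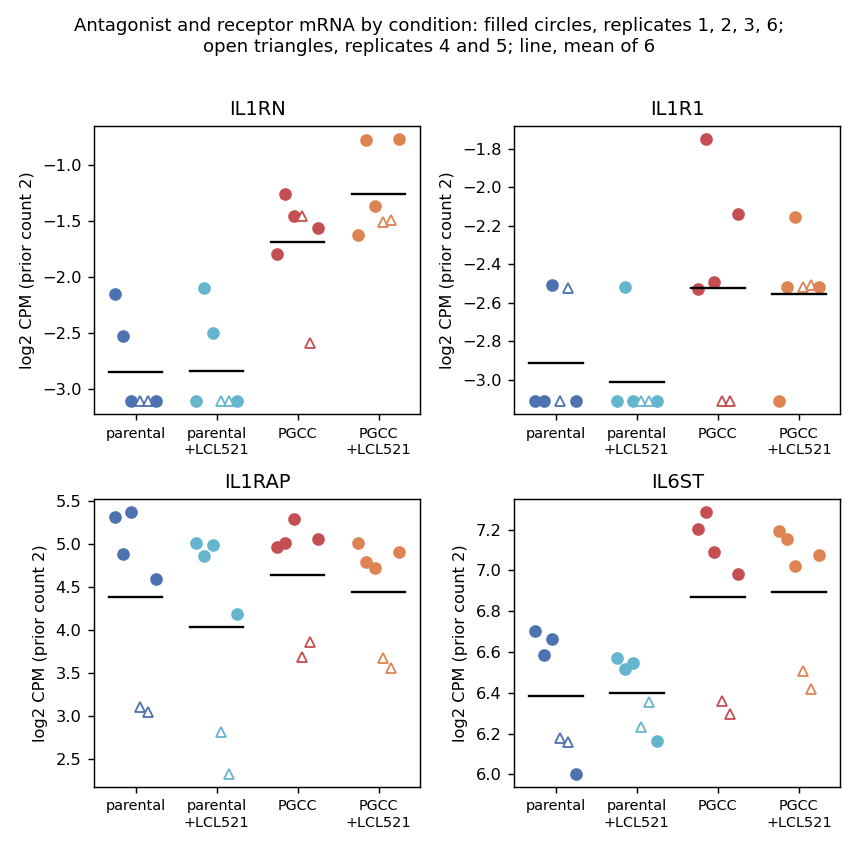
Log2 CPM (prior count 2) of the antagonist IL1RN and the receptor genes IL1R1, IL1RAP and IL6ST in every library of the 4 conditions. Filled circles are replicates 1, 2, 3 and 6, open triangles are replicates 4 and 5, and lines are means of 6. The open triangles of IL1RAP lie below all filled circles in each condition, and IL1R1 has at most 3 counts in any library.

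In the interleukin 6 family, the 3 ligands were higher in PGCC to different degrees. IL6 (ENSG00000136244, hg19 chromosome 7 from 22765503 to 22771621, plus strand) had 6 counts over the 6 parental libraries and 103 over the 6 PGCC libraries. The counts per library ran from 0 to 3 in parental cells and from 2 to 43 in PGCC, so that the groups overlapped through replicate 5 of PGCC, which had 2 counts. With LCL521 there were 3 and 86 counts, from 0 to 2 and from 7 to 24 per library, without overlap. The ratio of summed counts with LCL521 was 28.9, with an exact counting interval of 9.56 to 143, and the exact permutation test gave p = 0.00216, again the smallest it allows. IL6 did not pass the filter of the fit across genes for either contrast of populations. Its highest level in any library was 2.39 CPM, in replicate 6 of PGCC.

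IL11 (ENSG00000095752, hg19 chromosome 19 from 55875757 to 55881831, minus strand) encodes a cytokine that signals through IL11RA and gp130. It had 0.932, 1.91 and 3.46 CPM in parental cells and 3.22, 6.35 and 13.2 CPM in PGCC as lowest, median and highest level, and only replicate 5 of PGCC lay below the highest parental library. On the log2 scale the difference was 1.92 (SE 0.35). With LCL521 the levels were 1.04, 1.69 and 2.30 CPM against 3.06, 6.81 and 13.2 CPM, without overlap. There IL11 rose by 2.13 on the log2 scale (SE 0.33, edgeR adjusted p = 9.7e-05), or 4.39-fold with a 95% interval of 2.71 to 7.11.

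LIF, leukemia inhibitory factor (ENSG00000128342, hg19 chromosome 22 from 30636436 to 30642840, minus strand), had 3.79, 5.67 and 13.5 CPM in parental cells and 17.2, 26.5 and 36.6 CPM in PGCC, without overlap. On the log2 scale the difference was 1.84 (SE 0.31). With LCL521 the levels were 4.53, 5.96 and 17 CPM in parental cells and 22.1, 25.9 and 30.5 CPM in PGCC, again without overlap. LIF rose there with a log2 fold change of 1.59 (SE 0.33, edgeR adjusted p = 0.00106), or 3.01-fold with a 95% interval of 1.86 to 4.88. The rise was smaller in 2 of the 6 same-numbered pairs. Replicates 1, 2, 3 and 6 had a mean paired difference of 2.40 in log2 CPM, against 0.51 for replicates 4 and 5. With replicates 4 and 5 left out the fitted log2 fold change was 2.44. These replicates were set apart by their values in the same data, so no test is read from that fit. The parental libraries of replicates 4 and 5 had 2.67 times as much LIF as the others without LCL521 and 3.05 times as much with it.

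IL6ST, the gene of gp130 (ENSG00000134352, hg19 chromosome 5 from 55230923 to 55290821, minus strand), was abundant in every library. It had 64, 84.1 and 104 CPM in parental cells and 78.6, 131 and 156 CPM in PGCC, with overlap, and a log2 fold change of 0.52 (SE 0.19). With LCL521 it had 71.6, 86.5 and 95.0 CPM against 85.3, 132 and 146 CPM. IL6ST rose there with a log2 fold change of 0.55 (SE 0.14, edgeR adjusted p = 0.00404), a 1.46-fold difference with a 95% interval of 1.20 to 1.79. The mean paired difference was 0.66 for replicates 1, 2, 3 and 6, against 0.17 for replicates 4 and 5.

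Over the members as a whole, 7 of 10 passed the filter on low counts in each contrast of populations. Without LCL521, 5 of the 7 (IL1A, IL1B, IL11, LIF and IL6ST) were higher with an adjusted p under 0.05, beside 47.4% of all 13812 genes in either direction and 23.1% higher. That contrast was in view when the members were chosen, so this count is a description from which nothing is read. With LCL521, 5 of 7 members passed, all higher, beside 48.9% of the 13818 genes tested in either direction and 25% higher. They were the same 5 genes, one of which, IL1A, had to differ to be tested. With the replicate block, IL18 was added in the contrast with LCL521, beside 56.3% of all genes in either direction and 29.5% higher. The median log2 fold change of the 7 members was 1.59 with LCL521, where that of all genes tested was -0.01. Because the comparison of PGCC with parental cells was in view at the choice of members, the counts and the median with LCL521 are a description too. Every PGCC library was above every parental library for 3 of the 7 members tested without LCL521 (IL1A, IL1B and LIF), beside 13.9% of all genes tested, and for 4 of 7 with it (IL11 besides), beside 14.4%. Of the 3 members that did not pass the filter, IL1RN and IL6 did not overlap with LCL521.

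**Figure D4:**
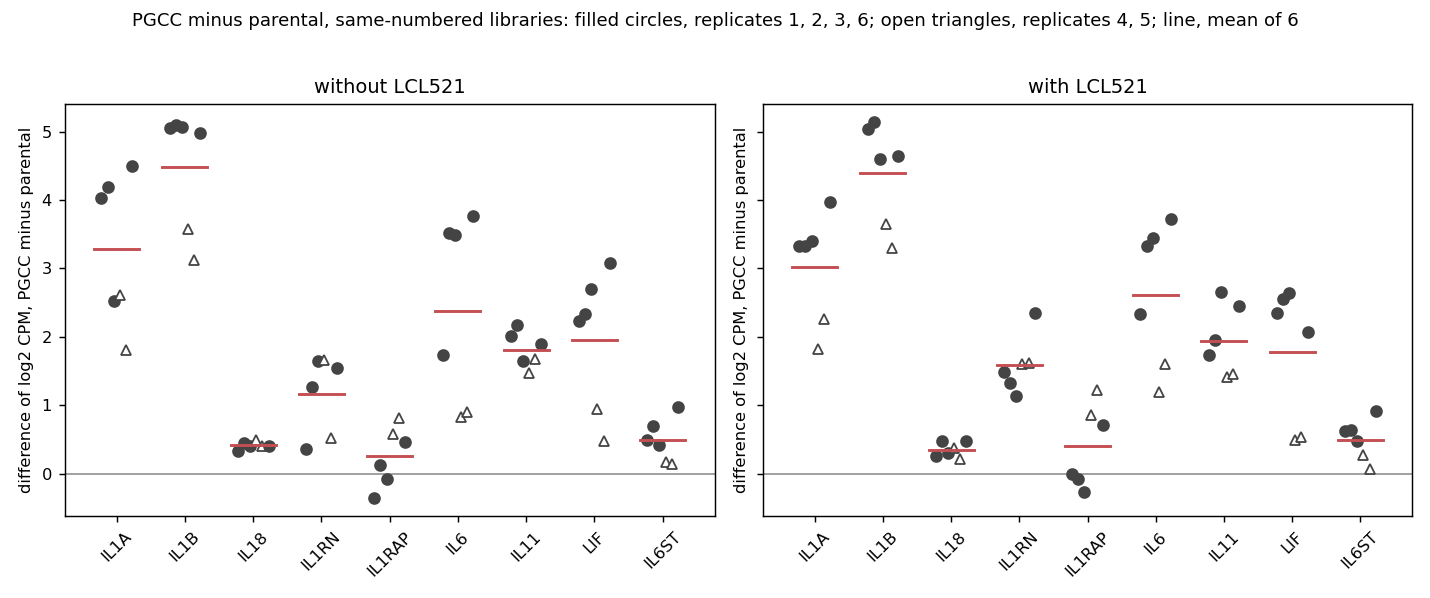
Differences of log2 CPM (prior count 2) between PGCC and parental libraries of the same number, without LCL521 (left) and with it (right), for 9 members. Filled circles are replicates 1, 2, 3 and 6, open triangles are replicates 4 and 5, and lines are means of 6. All 6 differences of IL1A, IL1B, IL18, IL1RN, IL6, IL11, LIF and IL6ST are above 0 in each panel, and the triangles lie lowest for IL1B, IL6, LIF and IL6ST.

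The split between replicates 4 and 5 and the others ran through most of the members that were higher in PGCC. For IL1B the mean paired difference between PGCC and parental cells of replicates 1, 2, 3 and 6 was 5.05, and that of replicates 4 and 5 was 3.35, without LCL521, and 4.85 and 3.48 with it. IL6 had 3.12 and 0.87 without LCL521 and 3.21 and 1.39 with it. For IL11 the values were 1.93 and 1.57, and 2.20 and 1.44. Without LCL521 the IL11 differences overlapped, with 1.67 in replicate 5 and 1.65 in replicate 3. The split was seen in both populations: parental cells of replicates 4 and 5 had 1.98 times as much IL1B as those of the other replicates, and PGCC of replicates 4 and 5 had 0.619 times as much, in each case without overlap. With LCL521 the ratios were 1.81 in parental cells, without overlap, and 0.699 in PGCC, where replicate 4 lay above replicate 3. With replicates 4 and 5 left out, the log2 fold change with LCL521 was 4.93 for IL1B, 2.32 for IL11 and 0.69 for IL6ST. Since these replicates had the smallest differences for the 3 genes, a larger value was bound to result, and no test is read from it. No such value is given for IL1A, which had 0 or 1 count in each of the parental libraries that were left. For IL18 the difference between populations was close in replicates 1, 2, 3 and 6 and in replicates 4 and 5, with means of 0.40 and 0.44 without LCL521.

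Few differences with LCL521 were called among the members. In parental cells 6 members passed the filter and 0 passed the threshold in edgeR's quasi-likelihood test, beside 0% of the 13277 genes tested. In PGCC 8 members passed the filter, IL6 and IL1A among them, and 0 passed the threshold, beside 0.00707% of 14151 genes. In these fits, which had no replicate block, none of the members tested had an unadjusted p under 0.05 in either population. DESeq2 and limma-voom, also without the block, called 0 of them as well. The 4 conditions were harvested in parallel in each of 6 experiments, libraries with the same number deviated together, and with the replicate number as a block 1 member passed, IL1B in PGCC, beside 1.65% of all genes in either direction, 1.08% higher and 0.572% lower.

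IL1B in PGCC was lower with LCL521 in 6 of 6 pairs. The CPM of the 6 pairs fell from 205 to 150.4, from 130.2 to 112, from 122 to 89.2, from 114 to 100.1, from 69.4 to 64.4 and from 135 to 119.5 in replicates 1 to 6. The ranges of the 2 groups overlapped, and the spread between replicate numbers was larger than the difference within them. The log2 fold change was -0.28 (SE 0.22, adjusted p = 1.00 from edgeR without the block) and -0.27 (SE 0.04, adjusted p = 9.7e-04) with the block. A two-sided exact permutation test over the 64 sign changes of the 6 paired differences gave p = 0.0312, the smallest p that 6 pairs allow, without correction for the 10 members examined this way. In parental cells IL1B was lower with LCL521 in 4 of 6 pairs, with a blocked log2 fold change of -0.19 (SE 0.11, adjusted p = 0.498). The difference between the LCL521 effects in PGCC and parental cells was -0.08 on the log2 scale (95% interval -0.86 to 0.71, edgeR's interaction test over all 24 libraries, without the block). Taken within same-numbered libraries, this difference had a mean of -0.09 in log2 CPM (SD 0.25, n = 6) and was above 0 in 3 and below 0 in 3. An effect particular to PGCC was therefore not shown.

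IL1RAP was lower with LCL521 in 6 of 6 pairs of parental cells. From replicate 1 to replicate 6 the levels were 39.5, 29.4, 41.3, 8.47, 8.15 and 23.9 CPM without the drug and 32.2, 28.8, 31.5, 6.91, 4.90 and 18.1 CPM with it. The blocked log2 fold change was -0.31 (SE 0.07) and did not pass the threshold (adjusted p = 0.0640), while the exact paired permutation test gave p = 0.0312, uncorrected. In PGCC IL1RAP was lower in 5 of 6 pairs, with a blocked log2 fold change of -0.21 (SE 0.07, adjusted p = 0.144). In parental cells IL11, IL6ST and IL18 were higher with LCL521 in 3 of 6 pairs and lower in the other 3. In PGCC IL18 was lower in 5 of 6 pairs, with a blocked log2 fold change of -0.06 (adjusted p = 0.551), and IL11 and IL6ST were higher in 3 of 6. IL1RN in PGCC was higher with LCL521 in 5 of 6 pairs, with 33 counts against 22, a ratio of 1.55 (exact counting interval 0.876 to 2.79) and an exact paired permutation p of 0.0625. For LIF in PGCC, the log2 fold change of LCL521 without the block was -0.02 with a 95% interval of -0.34 to 0.30, and for IL6ST it was 0.01 (-0.39 to 0.40). With the block these were -0.01 (-0.16 to 0.14) and 0.02 (-0.06 to 0.11). In the interaction test 0 of 8 members passed the threshold, beside 0% of 14555 genes, of which 60 had an unadjusted p under 0.05, none of them a member.

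**Figure D5:**
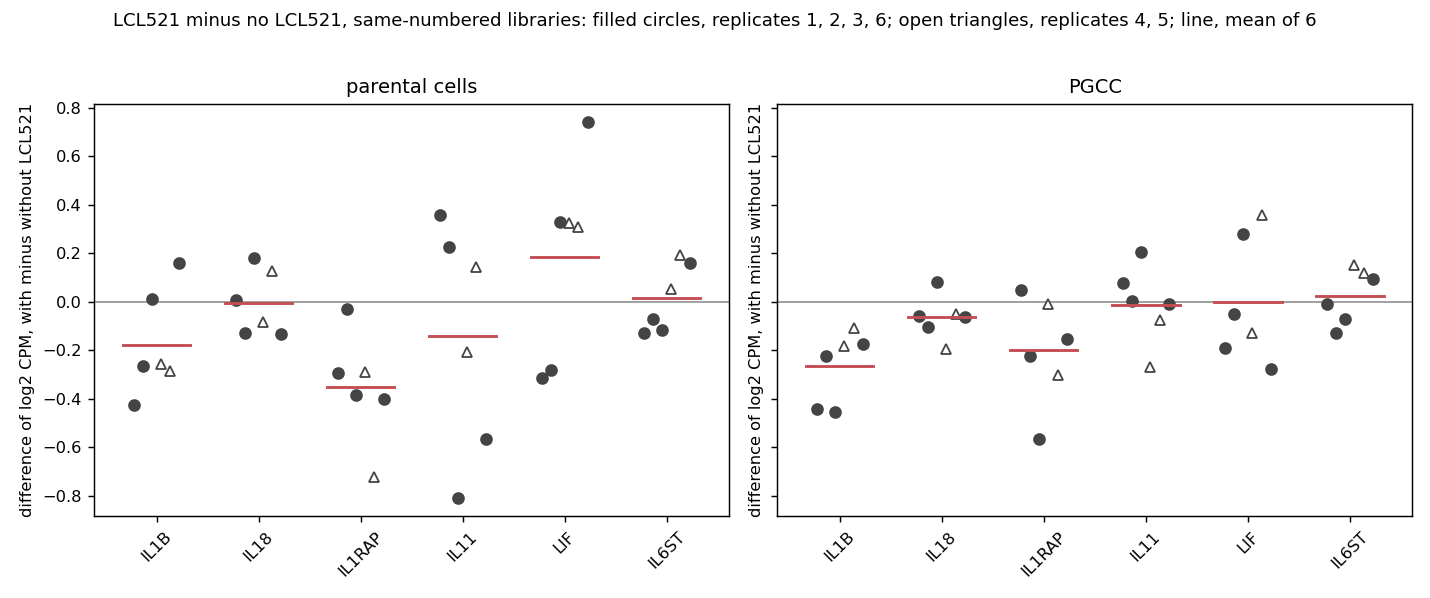
Differences of log2 CPM (prior count 2) between libraries with and without LCL521 of the same number, in parental cells (left) and PGCC (right), for the 6 members tested in both populations. Filled circles are replicates 1, 2, 3 and 6, open triangles are replicates 4 and 5, and lines are means of 6. All 6 points lie below 0 for IL1RAP in parental cells and for IL1B in PGCC.

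Further genes of the same pathways were examined from lists of 79 ligands, receptors, processing enzymes, signaling proteins and regulators. With LCL521 present, 56 of the 79 passed the filter in the contrast of PGCC with parental cells, of which 18 were higher, 8 were lower and 30 did not pass the threshold, beside 25% higher and 23.9% lower among all genes tested. With the replicate block 21 were higher and 9 lower, beside 29.5% higher and 26.8% lower among all genes tested with the block. Among receptors and binding proteins of the members, 2 of 5 tested rose and 0 fell. With the block 3 rose and 1 fell, since IL18BP, which binds interleukin 18 (0.59, adjusted p = 0.0205), and the LIF receptor gene LIFR (-0.27, adjusted p = 0.0489), both named after their values were seen, passed too. SIGIRR, an inhibitory receptor of the interleukin 1 family, had 0.990 ± 0.410 CPM in parental cells and 6.33 ± 1.43 CPM in PGCC (SD, n = 6), a log2 fold change of 2.69 (SE 0.26, edgeR adjusted p = 1.3e-06). IL11RA, the receptor of interleukin 11, rose by 0.83 on the log2 scale (adjusted p = 0.0133). Named after their values were seen, the decoy receptor IL1R2 and the interleukin 18 receptor chains IL18R1 and IL18RAP did not pass the filter.

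Of 15 other ligands of the families, 4 passed the filter and 3 rose. IL33, an interleukin 1 family member stored in the nucleus, rose from 0.784 ± 0.344 to 4.89 ± 0.231 CPM (SD, n = 6) by 2.66 on the log2 scale (SE 0.25, edgeR adjusted p = 1.1e-06). CLCF1, which encodes a cytokine that signals through gp130, rose by 0.57 on the log2 scale (edgeR adjusted p = 0.00674). CNTF had a log2 fold change of 0.15 (edgeR adjusted p = 0.665) and did not pass.

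Of 10 genes for the processing and release of interleukin 1, 7 passed the filter, 5 rose and 0 fell. NLRP3, an inflammasome sensor, rose from 2.78 ± 1.82 to 9.16 ± 2.69 CPM (SD, n = 6) by 1.74 on the log2 scale (SE 0.35, edgeR adjusted p = 0.00101). CAPN2, a calpain subunit, rose by 0.71 on the log2 scale (adjusted p = 9.5e-07). Named after their values were seen, CASP1, the protease that cleaves the interleukin 1β precursor, and PYCARD, the inflammasome adaptor, had at most 2 counts in any library.

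Of 15 genes of gp130 signaling, 12 passed the filter, 2 rose, 1 fell and 9 did not pass the threshold. The feedback inhibitors SOCS1 and SOCS3 rose with log2 fold changes of 2.63 (SE 0.46, adjusted p = 2.9e-04) and 0.73 (SE 0.13, adjusted p = 4.2e-04), and CISH fell by 0.97 on the log2 scale (adjusted p = 0.00632). STAT3, the main transcription factor downstream of gp130, was not among the genes tested. It was looked at after its counts had been seen: STAT3 had 20 counts over all 24 libraries and at most 4 in any library, STAT5A had 3 and STAT5B had 6. These genes neighbour each other on hg19 chromosome 17, and the 14 protein-coding rows between NKIRAS2 and NAGLU there, from ZNF385C to ATP6V0A1, all had low counts, with at most 17 in any library and 109 over the 24 libraries, 5 of them at 0 throughout. NKIRAS2 (40163400 to 40177659) had between 444 and 795 counts in each library and NAGLU (40688190 to 40696467) between 130 and 234. The interval holds RAB5C, a gene that most cells use, with 0 and 4 counts over the 24 libraries in its 2 rows. The low counts of this interval are therefore not read as absent expression, and what part the annotation or the counting had in them was not tested. Among the regulators of cytokine mRNA, 3 of 10 rose and 1 fell: ATF3 and FOSL1, members of the AP-1 and ATF family, had log2 fold changes of 2.01 (adjusted p = 0.00811) and 0.89 (adjusted p = 4.4e-04), and HNRNPD, which binds AU-rich mRNA, fell by 0.34 on the log2 scale (adjusted p = 0.00232). Of the 14 signaling genes downstream of the interleukin 1 receptor, 2 rose and 5 fell, and of the 4 other receptors tested, 1 rose and 1 fell. With LCL521 against without, 0 of 54 pathway genes tested passed in parental cells and 0 of 56 in PGCC in edgeR's test without the block. The shares of all genes tested were 0% and 0.00707%. With the block 1 passed in each, beside 0.866% of all genes tested in parental cells and 1.65% in PGCC. Both were named after their values were seen: FOSL1 in parental cells (-0.24, adjusted p = 0.0204) and IL6R, which encodes the interleukin 6 receptor, in PGCC (0.30, adjusted p = 0.00151).

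The genes whose variation among libraries of the same condition was most like that of IL1B were JAG1, which encodes a Notch ligand, JAK1, a kinase used by gp130, ROS1, a receptor tyrosine kinase, KLF5, a transcription factor, and RTN4, a protein of the endoplasmic reticulum. Likeness was measured by Pearson's r of the deviations from the condition mean over the 24 libraries among 10651 genes, and ran from 0.912 for JAG1 to 0.885 for RTN4. Libraries with the same number share their deviations, which enter these values, and no test is attached to them.

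Genes that overlap the members were examined for their counts. IL1A, IL1B, IL1RN and IL11 overlap no other listed gene. LIF overlaps MGC20647 and an antisense gene on the opposite strand, with 41 and 22 counts over all libraries beside 7314 for LIF, and IL6ST overlaps a pseudogene with 152 counts beside 42763. The overlapping partners of IL18, IL1R1, IL1RAP and IL6 had at most 5 counts. The strand setting of the counting is not given in the sources used here, so that reads of overlapping partners cannot be told apart.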

How the data were processed

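RNA-seq was analysed in 24 libraries, 4 conditions with 6 libraries each. The authors deposited raw counts of reads per gene with gene position and listed length. The submitters' processing notes name hg19, CASAVA, STAR, HTSeq and DESeq2. The strand setting and the annotation release are not given in the sources used here.

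From these counts, edgeR 4.0.16 (R 4.3.3) computed TMM factors and fitted each contrast with the quasi-likelihood test on its 12 libraries (24 for the interaction), after filterByExpr (minimum count 10, minimum total 15), with Benjamini-Hochberg adjustment over all genes tested and a threshold of 0.05. CPM are counts scaled to 1000000 by the library total times the TMM factor, and log2 CPM used a prior count of 2. A floor of 3 counts and the intervals of count ratios (exact, 95%) cover counting error only. Low members were compared by counts and by two-sided exact permutation tests. The total per library was 14835246 to 19906601, and the 10 most abundant genes took 3.87 to 6.54% of it. Per the labels, the experiment was repeated independently 6 times with parallel harvests, but no label ties a replicate number to a repeat.

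Same-numbered libraries deviated together, with correlations of at least 0.237 between parental cells and PGCC, 0.171 between these with LCL521, 0.458 within parental cells and 0.385 within PGCC, so, from these correlations, the numbers were taken to pair the libraries, and the replicate block was run as an alternative fit. Others were DESeq2 1.42.0, limma-voom (limma 3.58.1), no filter, other normalizations and prior counts, each replicate left out, replicates 4 and 5 left out, and all libraries in 1 fit. The exact tests and the blocked interaction were chosen after seeing the data.

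The 10 members and all gene lists were chosen with earlier results of these data known. Named beyond the members were at most the 2 largest rises and falls past the threshold in each pathway list (with LCL521), other ligands reaching 1 CPM in at least 3 libraries, and the 5 genes most like IL1B. The code was tested on simulated data. Some genes of the marker and pathway lists are not reported here by name.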

Additional observations from a re-analysis of the deposited data

Results flagged for a closer look

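IL1R1 in parental cells with LCL521 was singled out because 1 library, replicate 2, stood apart from the other 5: it had 1 count and the others had 0. Chance marks about 1 in 20 groups by this measure, and a single count is at the limit of the depth.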

How the results depend on the processing

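The calls of IL1B, IL11, LIF and IL6ST between PGCC and parental cells with LCL521 passed the threshold under every alternative run, IL1A passed where it was tested, which rested on its PGCC counts, and no called member changed direction. Without a filter IL1RN and IL6 passed too, as did IL6 with all 24 libraries in 1 fit. Both had 3 counts over the 6 parental libraries with LCL521. In the fit of all 24 libraries IL6 passed the filter only through PGCC libraries, so that it could be tested only because it was high there. Since the members were chosen with earlier results in view, these calls are a description. With each replicate left out in turn, 5734 to 6339 genes and 5 to 6 members passed in that contrast, and 5529 to 6333 genes without LCL521. In the contrast of PGCC with and without LCL521, 1 gene passed in the fit reported, 6 with DESeq2, 0 with limma-voom, 0 with all 24 libraries in 1 fit, 0 to 1 with each replicate left out, 0 without replicates 4 and 5, 234 with the replicate block and 129 with the block and without replicates 4 and 5. The member count there was 0, and 1 with the block, with or without replicates 4 and 5, which was IL1B. In parental cells 0 genes passed in the fit reported, with 71 at an unadjusted p under 0.05, 115 passed with the replicate block and 3 with the block and without replicates 4 and 5. IL18 passed with LCL521 under the block, without replicate 4, and without replicates 4 and 5. Replicates 4 and 5 had low IL18 values in the same data, so no test is read from the fits without them. The replicate block changed no other call of a member in a tested contrast. With prior counts of 0.5 and 5, 23 of 80 mean log2 CPM moved by more than 1 SD, all of IL1A, IL1RN, IL1R1 or IL6. The causes were not tested beyond the construction of each alternative. Depth limits IL1A, IL1R1, IL1RN and IL6, which had at most 10 summed counts over the 6 parental libraries, with or without LCL521.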
